A study of Oryza sativa Japonica Group with 9 samples.

Results

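Some stretches of the rice genome gave rise to RNA in the shoot apex without carrying a gene name in the authors' tables. They are described here as unnamed loci. A locus was taken when its gene name was blank, it spanned at least 200 bp, its estimate had the status OK in all 6 libraries, and it reached at least 1 FPKM in at least 2 of 6 libraries. The loci were thus selected on measured level. FPKM is the number of fragments scaled to transcript length and library size. Of 57567 loci, 1848 had no gene name and 894 of these (48.4%) met the rule. Another 935 were long enough but below the level, 71 of them listed at 0 in all 6 libraries, and 19 were shorter than 200 bp. For comparison, 21480 named loci met the same level.

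The libraries came from shoot apices, the 2 to 3 mm tip with the meristem and youngest leaves, of 5-day-old Oryza sativa Japonica seedlings of the cultivar Hwayoung kept at 28 °C in the 14 h light phase and at 24 °C in the 10 h dark phase. RNA was sequenced from wild type, wox11 mutant and jmj705 mutant seedlings, with 2 libraries of each genotype, which the series describes as biological repeats. The FLAG-tagged histone demethylase JMJ705 was mapped by chromatin immunoprecipitation (ChIP) in lines that over-express it, either in an otherwise wild-type or in a wox11 mutant background, with 1 peak list each. The nature of either mutation, the promoter that drives the over-expressed protein and the number of seedlings in a library are not stated in the labels.

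An assembler that joins RNA reads into transcripts, such as Cufflinks, reports every transcribed stretch it can build, and a stretch that overlaps no annotated gene stays without a name. Such stretches can be long non-coding RNAs, transcribed transposons, missed exons or extended ends of neighbouring genes, or genes that the annotation lacks. WOX11 belongs to the WUSCHEL-related homeobox proteins, which bind DNA and regulate other genes, and is known in rice for crown root growth. JMJ705 demethylates lysine 27 of histone H3, and the mark it takes off is one that Polycomb proteins place on silent genes.

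The labels were checked on the mutated genes first. WOX11 stood at 4.52 and 5.00 FPKM in wild type, 1.49 and 1.11 in wox11 and 4.57 and 7.56 in jmj705. JMJ705 stood at 7.41 and 6.73 FPKM in wild type, 8.39 and 8.10 in wox11, and 13.7 and 12.5 in jmj705. The JMJ705 transcript was thus higher, not lower, in the last pair, which are called the libraries labelled jmj705 from here on. The word mutants below follows the labels alone. The meristem genes OSH1, OSH15 and OSH71 lay between 26.9 and 69.2 FPKM in every library, with both wox11 libraries below both wild-type libraries for each gene. That order in wox11 was found at 22.6% of all loci past the level. The YABBY gene TOB1 lay between 51.5 and 66.8. The YABBY gene YAB3 had 14.2 and 14.1 FPKM in wild type and 8.89 to 11.8 in the other 4 libraries, and the leaf gene RBCS had 39.8 and 43.4 in wild type and 21.5 to 28.4 in the others. The root marker RCc3 ranged from 23.9 to 146 FPKM, lowest in wox11 replicate 2. Of the endosperm and aleurone markers, GluA2, in a locus joined with LOC_Os10g26070, had 4.23 to 6.15 FPKM and RAmy3D had 0.129 to 0.967. The part of these marker differences in the results below was not tested. Libraries correlated at 0.961 to 0.987 on log2(FPKM + 1), lowest between wild-type replicate 1 and replicate 2 labelled jmj705. FPKM does not give read depth. The precision of single values is therefore known only through the authors' confidence bounds, and a value of 0 is written as listed at 0.

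Most unnamed loci were weakly transcribed. Their mean over the 6 libraries had a median of 2.87 FPKM and ranged from 0.398 to 1632, against a median of 11.3 FPKM for named loci. The loci were chosen by level, so this difference is a description. Means under 1 FPKM were found for 102 unnamed loci, means of 1 to 10 for 618 and means of at least 10 for 174, with 24 at 100 or more. All 6 libraries reached 1 FPKM for 601 of 894 (67.2%), while 96 passed the level in exactly 2 libraries. The authors' lower confidence bound was above 0 in all 6 libraries for 426 unnamed loci (47.7%) and for 81.8% of named loci, and it was 0 in all 6 for 282 unnamed loci. Just inside the level, XLOC_046571 had a second-highest value of 1.0006 FPKM, and just outside it XLOC_020448 had 0.999. Just inside the length limit was XLOC_053868 at 202 bp, and just outside it XLOC_024298 at 192 bp.

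**Figure D1:**
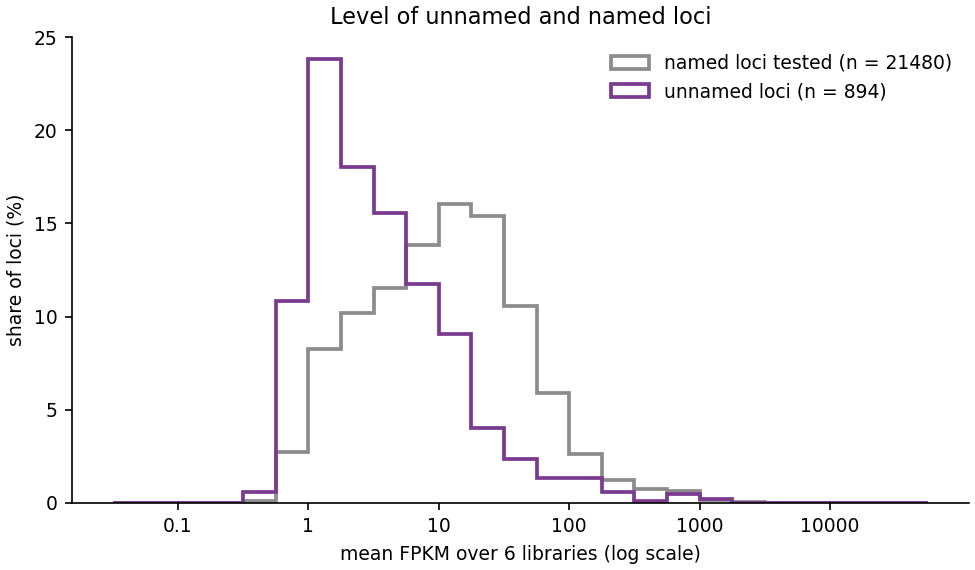
Share of loci (%) by mean FPKM over 6 libraries on a log scale, for the 894 unnamed loci and the 21480 named loci past the same level. The unnamed loci gather at low levels, with a median of 2.87 FPKM against 11.3 for named loci.

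A few unnamed loci were among abundant transcripts. Summed over the 894, the level was 14400 and 16434 FPKM in the wild-type libraries, 13052 and 14468 in wox11, and 13632 and 16221 in those labelled jmj705. Replicate 2 was the higher of each pair, and the 3 genotypes overlapped. These sums were 1.84 to 2.02% of the FPKM of all loci past the level, and the 12 highest unnamed loci held 46.9 to 52.9% of them. With 2 libraries against 2, an exact permutation test cannot go below p = 0.333, so the sums were not tested.

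The highest was XLOC_029597, a locus of 1493 bp on chromosome 3 (32398441 to 32399934) with a single start site. It stood at 1504 and 1993 FPKM in wild type, 1369 and 1761 in wox11, and 1333 and 1834 in the libraries labelled jmj705. The genotypes overlapped, and its nearest named locus, LOC_Os03g56890 at 332 bp, had only 0.179 to 0.748 FPKM. XLOC_048923 on chromosome 7 (21672816 to 21674197) followed with 1183 and 1248 FPKM in wild type, 918 and 1112 in wox11, and 970 and 1333 in the libraries labelled jmj705. Its neighbour LOC_Os07g36260, at 534 bp, had 1.86 to 2.60 FPKM.

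XLOC_034625 on chromosome 4 (25751452 to 25753413) had 748 and 970 FPKM in wild type, 741 and 870 in wox11, and 735 and 1038 in those labelled jmj705, beside LOC_Os04g43550 at 286 bp with 0.723 to 1.11 FPKM. XLOC_015637 on chromosome 12 (12240357 to 12242870) had 834 and 980, 654 and 760, and 713 and 992 FPKM in the same order, and the nearest named locus 1264 bp away was listed at 0 throughout. These 4 loci thus stood far above the named loci beside them. The other 8 of the 12 highest had means of 193 to 705 FPKM. XLOC_034065 on chromosome 4 (18369336 to 18371222) had 651 and 760 FPKM in wild type, 456 and 550 in wox11, and 493 and 731 in those labelled jmj705, 379 bp from LOC_Os04g30740 at 11.6 to 13.9 FPKM.

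XLOC_034200, also on chromosome 4 (20431943 to 20435780), had 549 and 650, 459 and 505, and 490 and 611 FPKM in the same order, and the named locus LOC_Os04g33740, 4881 bp away, had 43.2 to 61.7. In these loci both wox11 libraries were below both wild-type libraries, but the differences of -0.49 and -0.31 in log2(FPKM + 1) did not pass (limma adjusted p = 0.581 and 0.687). Others of the 12, such as XLOC_048923 and XLOC_015637, had that order too. It was found at 22.0% of unnamed loci and 22.6% of all loci tested. XLOC_031666 on chromosome 4 had 192 to 294 FPKM, XLOC_019760 on chromosome 2 had 197 to 224, XLOC_026993 on chromosome 3 had 181 to 259 and XLOC_013551 on chromosome 11 had 165 to 233. XLOC_019760 was the most even of these, with 209 and 221 FPKM in wild type, 197 and 224 in wox11, and 212 and 218 in those labelled jmj705. XLOC_047536 on chromosome 7 had 627 to 825 FPKM in coordinates that 56 loci share. None of the 12 passed the test described below in either mutant by limma's adjusted p. A contrast is XLOC_012051 on chromosome 11, which shares its coordinates with a named locus that is abundant too: LOC_Os11g38959 had 389 to 494 FPKM and XLOC_012051 had 217 to 285. How reads were divided between loci with the same coordinates is not stated in the labels or file headers.

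Unnamed loci were short and simple beside named ones. No 2 sets of coordinates in the tables overlapped without being identical, so overlapping transcripts carry the coordinates of their whole group, and length describes a locus only where it has coordinates of its own. That was so for 750 of 894 unnamed loci. Their median length was 1659 bp (202 to 26736), against 3710 bp for named loci. A single transcription start site was listed for 751 of 894, and 16.0% had 2 or more, against 38.5% of named loci. Among the 750, level and length had a Spearman correlation of 0.182. The 5 longest sets of coordinates, at XLOC_037135, XLOC_047109, XLOC_021720, XLOC_014153 and XLOC_045208, spanned 272093 to 298691 bp but were shared by 45 to 56 loci each, so those spans are not transcript lengths.

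Locus numbers run along each chromosome and then restart from its beginning, and 3 such runs were found. The third run held 833 of 1848 unnamed loci and 3 of 55719 named ones. It held 283 of the 894 loci described here (31.7%). None of those 283 had 2 or more start sites, while 82 of 325 in the first run and 61 of 286 in the second did. Loci with their own coordinates had a median length of 824 bp in the third run, against 2417 and 2421 bp in the first and second. Median levels were 1.98, 3.38 and 3.30 FPKM in the same order. The tables give no strand and do not say what the runs are.

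Every one of the 12 chromosomes carried unnamed loci, from 39 on chromosome 9 to 128 on chromosome 1. Per 1000 named loci past the level, they were fewest on chromosome 3 with 29.5 and most on chromosome 11 with 65.8.

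Unnamed loci mostly lay close to named ones. The nearest named locus was below 1 FPKM in all 6 libraries for 441 of 894 (49.3%), and listed at 0 in all 6 for 258 (28.9%). The nearest named locus was 1228 bp away at the median. It shared the same coordinates in 74 cases, lay within 1 kb in 406 (45.4%) and within 5 kb in 816 (91.3%). Named loci had another named locus within 1 kb in 55.5% and within 5 kb in 94.2%. When only named loci past the level were counted, 541 unnamed loci had one within 5 kb and the median distance was 3149 bp. Only 17 unnamed loci lay more than 10 kb from any named locus, and the farthest lay 80498 bp away. The nearest other unnamed locus of the 894 was 128669 bp away at the median, with 127 closer than 5 kb.

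Levels of unnamed loci and of their neighbours showed little relation. Over the 168 with their own coordinates and a named locus past the level within 1 kb, the Spearman correlation between both levels was 0.0303. Between level and distance, over the 750 with their own coordinates, it was -0.0122. Loci share libraries, so these values describe the loci and carry no p.

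**Figure D2:**
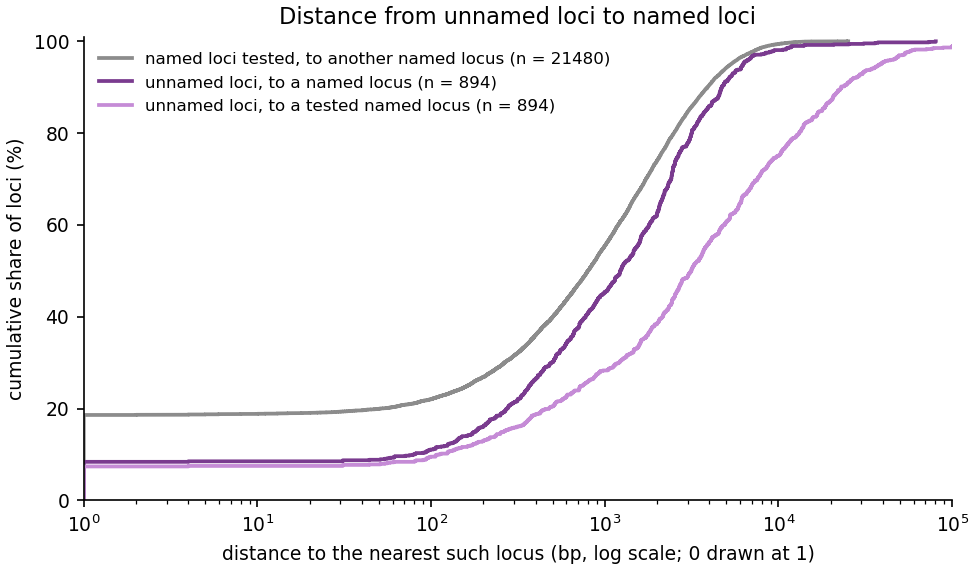
Cumulative share of loci (%) by distance in bp, on a log scale, to the nearest named locus. Of the unnamed loci 91.3% have a named locus within 5 kb, and 94.2% of named loci have another.

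In wox11 and in those labelled jmj705, every unnamed locus that passed the test against wild type was higher, and most went from almost nothing to a few FPKM. The test was limma on log2(FPKM + 1) over all 22374 loci past the level, named ones included, with Benjamini-Hochberg adjustment at 0.05. In wox11, 13 of 894 unnamed loci rose (1.45%) and none fell, where 0.496% of all loci tested rose and 0.371% fell. In the libraries labelled jmj705, 17 rose (1.90%) and none fell, where 0.429% of all loci rose and 0.0849% fell. Both counts use the same wild-type libraries. Among the 13 in wox11 are 3 neighbours on chromosome 5 that are not separate observations, as described below. These are bulk samples, in which a change in the number of cells that transcribe a locus and a change in RNA per cell cannot be told apart. By limma's p before adjustment, under 0.05, 50 unnamed loci were on the higher side in wox11 (5.59%) and 53 on the lower (5.93%), against 4.67 and 5.77% of all loci tested. In those labelled jmj705 they were 72 (8.05%) and 55 (6.15%), against 6.17 and 5.79%. Median differences were small, at -0.03 and -0.06 on the log2(FPKM + 1) scale, against -0.02 for all loci in each contrast.

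The counts depended on the loci let into the test and on single libraries. No riser changed direction under the alternatives run. Without the level filter 6 and 8 of the same 894 rose, and calls at unnamed loci below the level were not counted. Shares of all loci called were not counted under the alternatives. Without wox11 replicate 1 or 2 the wox11 count was 8 or 7, and for the libraries labelled jmj705 it was 7 without wild-type replicate 1, 9 without replicate 1 labelled jmj705 and 8 without replicate 2. A locus that met the level only in 1 genotype had to differ, and these were 5 for wild type, 15 for wox11 and 27 for those labelled jmj705. Of those, 6 of the 15 are among the 13 that rose and 11 of the 27 are among the 17. More broadly, 11 of the 13 and 16 of the 17 were below 1 FPKM in both wild-type libraries. They met the level through mutant libraries alone, so the shares that rose depend on the rule.

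**Figure D3:**
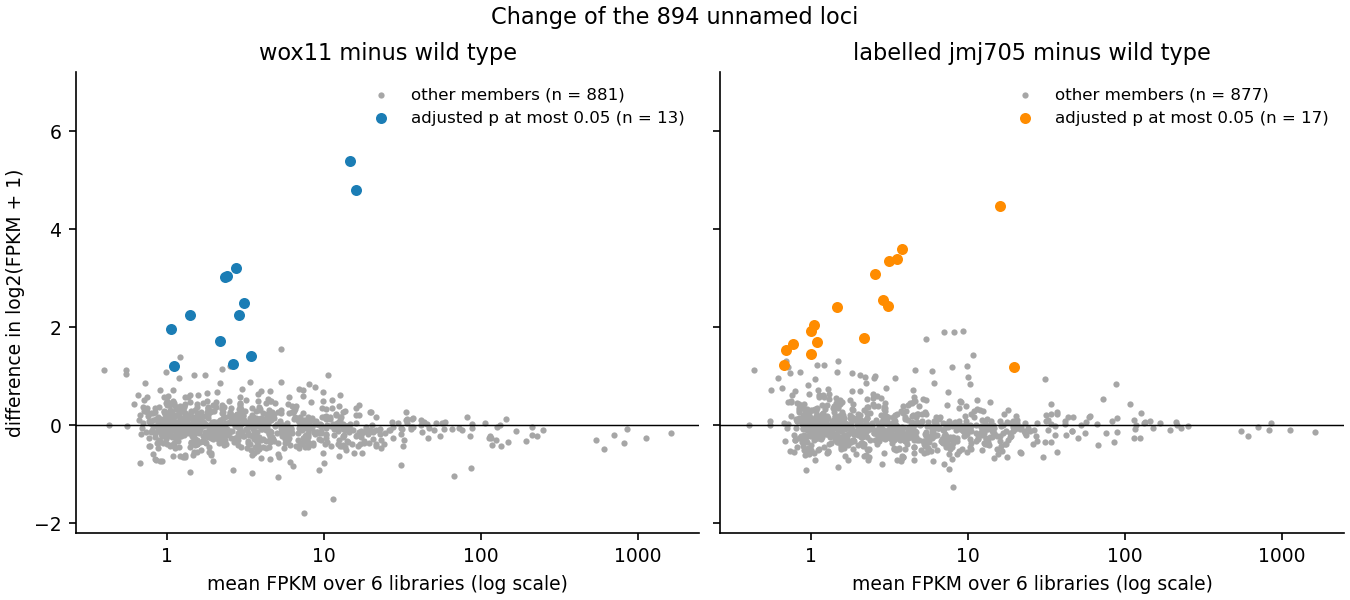
Difference from wild type in log2(FPKM + 1) for each of the 894 unnamed loci, by mean FPKM on a log scale, for wox11 on the left and the libraries labelled jmj705 on the right. Coloured points passed limma's adjusted p of 0.05, and all 13 and 17 of them lie above 0.

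Rises that both mutants had in common were found at 4 unnamed loci. XLOC_014636, a 237 bp locus on chromosome 11 (5451218 to 5451455), was listed at 0 in both wild-type libraries, and had 30.5 and 23.2 FPKM in wox11 and 24.7 and 18.0 in the libraries labelled jmj705. All 4 values outside wild type were high and both wild-type libraries were at 0 (limma adjusted p = 0.000112 and 0.000331). The authors' bounds were wide at this short locus, from 0 to 62.0, 50.3, 53.6 and 38.8 FPKM in those 4 libraries. The named locus 638 bp away, LOC_Os11g10090, had 22.7 to 37.2 FPKM in all libraries and passed in neither contrast.

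XLOC_012880, also on chromosome 11 (4351299 to 4354084), had 0.05 and 0 FPKM in wild type, 4.70 and 4.74 in wox11, and 4.34 and 4.72 in the libraries labelled jmj705. The difference was 2.48 (SE 0.16) and 2.43 (SE 0.16) in log2(FPKM + 1), with limma adjusted p of 0.00089 and 0.00139. A JMJ705 peak of the wild-type background overlapped one end of it, as described below.

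XLOC_010365 on chromosome 10 (12804197 to 12805081) was listed at 0 in wild type and had 3.56 and 3.90 FPKM in wox11 and 4.11 and 5.73 in those labelled jmj705 (limma adjusted p = 0.00379 and 0.00224). XLOC_018701 on chromosome 12 (26946828 to 26947691) was not silent in wild type, at 0.263 and 0.203 FPKM, and had 2.95 and 3.12 in wox11 and 3.52 and 2.99 in those labelled jmj705. It rose by 1.71 (SE 0.17) and 1.78 (SE 0.17) on that scale (limma adjusted p = 0.00711 and 0.00766). None of these 4 loci passed the direct comparison of the mutants, where limma's adjusted p was 0.818 to 0.96. XLOC_035472 on chromosome 4 had the same shape at a lower level, with 0 and 0.0498 FPKM in wild type, 1.23 and 1.08 in wox11, and 1.64 and 1.93 in the libraries labelled jmj705. It passed in the second contrast (limma adjusted p = 0.0235) and not in wox11 (0.0502). The call was lost under 9 of 17 alternative settings.

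The largest rise in wox11 was that of XLOC_029990, a 2004 bp locus on chromosome 3 (12829846 to 12831850). It had 0.0735 and 0.072 FPKM in wild type, 39.2 and 48.6 in wox11, and 0.055 and 0 in the libraries labelled jmj705. The wox11 libraries were high and the other 4 held a trace or less, a difference from wild type of 5.38 (SE 0.17) in log2(FPKM + 1) with a limma adjusted p of 3.35e-05. The mutants differed by 5.44 on the same scale, higher in wox11 (limma adjusted p = 4.11e-05). Its neighbour LOC_Os03g22400, at 1568 bp, stayed between 19.5 and 23.6 FPKM in all libraries.

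On chromosome 5, 3 unnamed loci in a stretch of 3690 bp were read in wox11 and listed at 0 in each of the other 4 libraries. XLOC_040149 (16433547 to 16434027) had 7.53 and 7.01 FPKM in wox11. XLOC_039052 and XLOC_039053, which share the coordinates 16434587 to 16437237, had 7.07 and 7.07, and 6.91 and 9.62. Their limma adjusted p was 0.000464 to 0.00088 against wild type and 0.000485 to 0.000932 between the mutants. The 3 loci lie 560 bp apart at most and may share reads or a transcript, so they are not separate observations. The named locus past the level nearest to them, LOC_Os05g28120, had 0.68 to 1.29 FPKM in all libraries.

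XLOC_053845 on chromosome 8 (2476092 to 2476766) was listed at 0 in wild type, with 4.93 and 2.84 FPKM in wox11 and 0.303 and 0.305 in those labelled jmj705 (limma adjusted p = 0.00941). XLOC_029020 on chromosome 3 (24736688 to 24740752) had 0.0422 and 0.035 FPKM in wild type, 2.88 and 3.23 in wox11, and 0.0715 and 0.0868 in those labelled jmj705, a rise of 1.96 (SE 0.17) in wox11 (limma adjusted p = 0.00451). Both also passed the direct comparison, lower in the libraries labelled jmj705 (limma adjusted p = 0.0297 and 0.00547). In that comparison XLOC_053845 lost its call under 8 of 17 alternative settings and XLOC_029020 under 4 of 17. The other 3 loci past the test in wox11 had in-between levels in the other mutant. XLOC_009569 had 1.54 and 1.17 FPKM in wild type, 5.79 and 4.75 in wox11, and 3.03 and 4.22 in the libraries labelled jmj705. XLOC_040147 had 1.21 and 1.26, 4.51 and 4.10, and 2.00 and 2.76 FPKM in the same order, and XLOC_056577 had 0.163 and 0.39, 1.78 and 2.1, and 1.05 and 1.14. These 3 rose by 1.21 to 1.41 in wox11 (limma adjusted p = 0.0298, 0.0312 and 0.0386). Their calls were lost under 5 of 17, 6 of 16 and 10 of 17 alternative settings, and none passed the comparison with the libraries labelled jmj705.

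Loci high in the libraries labelled jmj705 had the same off-to-on shape. XLOC_034835 on chromosome 4 (28366403 to 28368064), was listed at 0 in both wild-type libraries, had 0.131 and 0.0499 FPKM in wox11 and 9.94 and 12.5 in those labelled jmj705 (limma adjusted p = 0.000449). XLOC_053846 on chromosome 8 (3498193 to 3498903) had 0 and 0.202 FPKM in wild type, 0 and 0.0671 in wox11, and 11.3 and 9.58 in those labelled jmj705. That was a rise of 3.38 (SE 0.19) in log2(FPKM + 1) with a limma adjusted p of 0.000646. XLOC_006723 on chromosome 1 (27623487 to 27624143) was listed at 0 in wild type, with 0 and 0.076 FPKM in wox11 and 8.15 and 10.5 in those labelled jmj705 (limma adjusted p = 0.000646).

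XLOC_003009 on chromosome 1 (38309071 to 38310419) lay 135 bp from LOC_Os01g66010, which had 28.6 to 46.9 FPKM in all libraries. The unnamed locus was listed at 0 in wild type, had 0 and 0.0928 FPKM in wox11 and 6.29 and 8.96 in those labelled jmj705 (limma adjusted p = 0.00149). XLOC_007801 on chromosome 10 (14148770 to 14158130), the longest of the risers at 9360 bp, was listed at 0 in wild type, with 0 and 0.00809 FPKM in wox11 and 5.46 and 3.35 in those labelled jmj705 (limma adjusted p = 0.00766). The named locus 660 bp from it was near silent, at 0 to 0.0132 FPKM.

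These 5 loci also passed the direct comparison of the mutants, as did XLOC_023882, XLOC_056537 and XLOC_004668. XLOC_023882 on chromosome 2 was listed at 0 in all 4 libraries of wild type and wox11 and had 2.84 and 3.42 FPKM in those labelled jmj705. XLOC_056537 on chromosome 9 had 0.0292 and 0.0285 FPKM in wild type, 0.0586 and 0.112 in wox11, and 3.12 and 2.63 in those labelled jmj705. XLOC_004668 on chromosome 1 had 0.0866 FPKM in wild-type replicate 1, was listed at 0 in wild-type replicate 2 and both wox11 libraries, and had 2.16 and 1.90 in those labelled jmj705. Its call against wild type was lost under 6 of 17 alternative settings. Of the rest, XLOC_036400 on chromosome 5 was the only one of the 17 above 1 FPKM in wild type, with 10.9 and 15.1 FPKM there, 16.2 and 15.2 in wox11, and 27.9 and 32.8 in those labelled jmj705. It rose by 1.18 (SE 0.17, limma adjusted p = 0.046), a call lost under 11 of 18 alternative settings. XLOC_030010, XLOC_035489 and XLOC_014632 ended at 1.55 to 2.93 FPKM, and limma's adjusted p of the last 2 was 0.0482 and 0.0489. Each of those 2 lost its call under 14 of 17 alternative settings, and XLOC_030010 under 5 of 16.

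**Figure D4:**
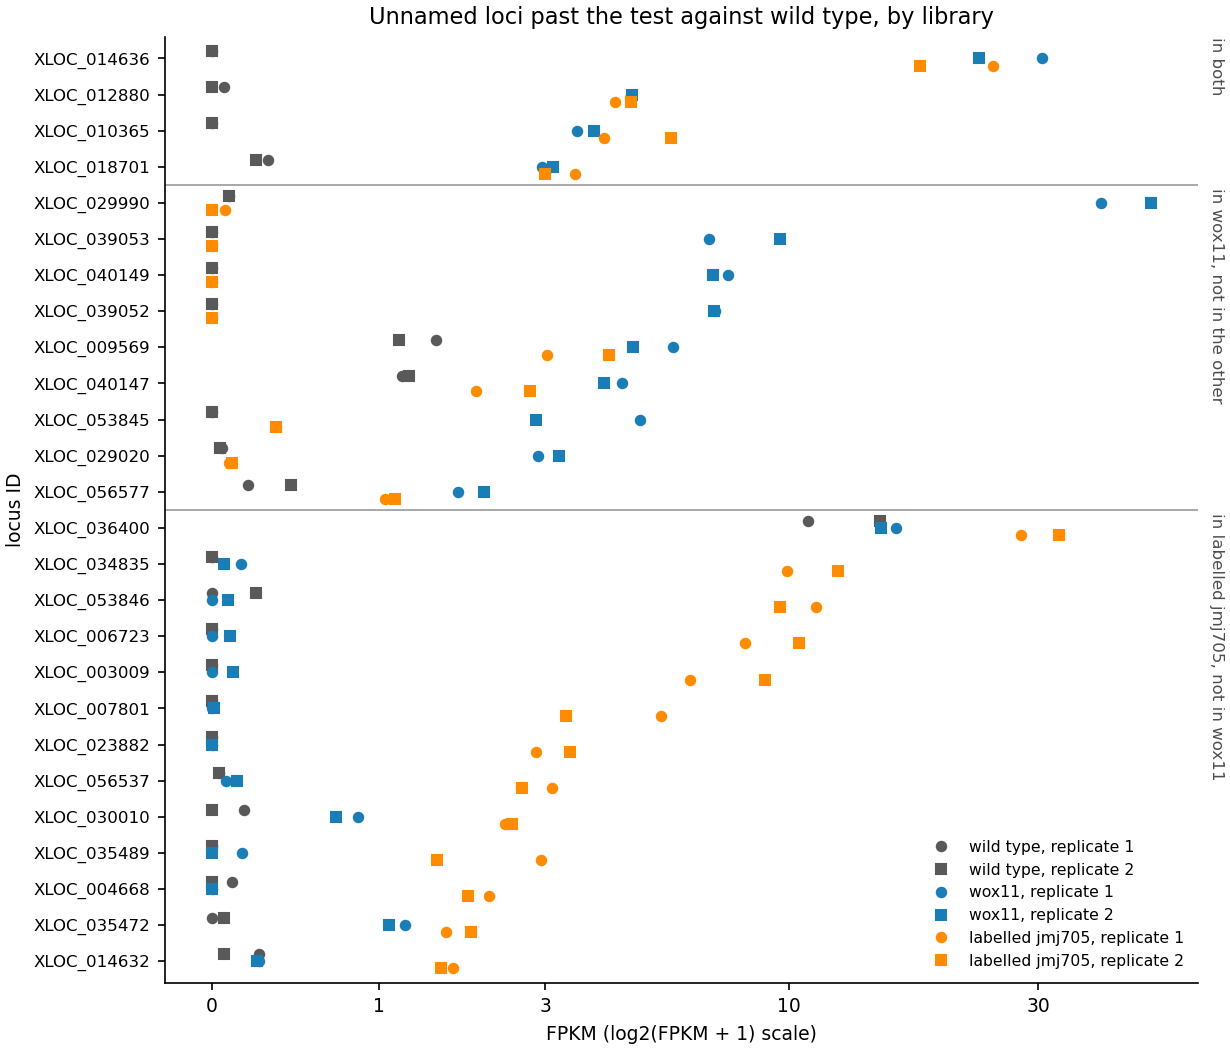
FPKM in each of the 6 libraries, on a log2(FPKM + 1) axis, of the 26 unnamed loci that passed limma's test against wild type in at least 1 mutant: 4 in both, 9 in wox11 and 13 in those labelled jmj705. In most of them the wild-type points sit at or near 0.

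Between the mutants, 9 unnamed loci were higher and 6 lower in the libraries labelled jmj705 than in wox11, where 0.210% and 0.139% of all loci tested were. Of these 15, 14 are named above, and the 6 lower include the 3 neighbours on chromosome 5. The other is XLOC_006715 on chromosome 1 (24282734 to 24287218), with 7.09 and 2.90 FPKM in wild type, 1.63 and 2.37 in wox11, and 25.8 and 15.7 in those labelled jmj705. The mutants differed by 2.83 (SE 0.37, limma adjusted p = 0.0342), while neither mutant passed against wild type. The authors' lower bound was 0 in every library, with upper bounds of 88.9 and 63.0 FPKM in those labelled jmj705. For this locus the call was lost under 5 of 17 alternative settings. It shares its coordinates with LOC_Os01g42700, which had 66.4 to 113 FPKM and passed in no contrast, and the division of reads between both is uncertain. The count between the mutants was 8 without wox11 replicate 1, 9 without wox11 replicate 2 and 9 without replicate 2 labelled jmj705.

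Of the 13 in wox11, 11 were below 1 FPKM in both wild-type libraries and 6 were listed at 0 in both. Of the 17 in the libraries labelled jmj705, 16 were below 1 FPKM in wild type and 8 were listed at 0. A locus at 0 in both libraries of a genotype shows no spread there. That can pull down the spread that the test estimates over the genotypes, and the p of the locus with it. The authors' lower confidence bound was 0 in both wox11 libraries for 4 of the 13, and in both libraries labelled jmj705 for 6 of the 17. It was above 0 in both for 7 and 11 of them. Own coordinates were held by 11 of the 13 and all 17 (83.9% of the 894), a single start site by 12 and 16 (84.0%), and a number in the third run by 6 and 8 (31.7%). A named locus lay within 1 kb of 3 and 8 of them (45.4%). The nearest named locus past the level did not pass the test in the same contrast for any of them. Of all named loci past the level, 0.456% rose and 0.386% fell in wox11. In those labelled jmj705, 0.368% rose and 0.088% fell, and nothing is read from the missing calls.

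When a trace was set as under 0.1 FPKM and on as at least 1 FPKM in both libraries, 4 unnamed loci (0.447%) were on in both mutants and at most a trace in wild type, beside 0.0402% of all loci tested. They are XLOC_010365, XLOC_012880, XLOC_014636 and XLOC_035472. Another 6 were on in wox11 alone and 6 in the libraries labelled jmj705 alone (0.671% each), beside 0.0805% of all loci. The former include the 3 neighbours on chromosome 5, which are not separate observations. The former hold, besides 5 described above, XLOC_017725, with 1.37 and 1.02 FPKM in wox11 and 0 elsewhere (limma adjusted p = 0.0531). The latter hold, besides 5 described above, XLOC_046181, with 1.47 and 1.02 FPKM in those labelled jmj705 and at most 0.045 elsewhere (limma adjusted p = 0.0753). None were on in wild type alone, which was the pattern of 1 named locus and of 0.00447% of all loci. These patterns were counted after the values were seen and used the level that chose the loci, so they are a description.

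Lower levels in the mutants were not called, and the clearest are given as values. XLOC_032665 on chromosome 4 had 8.85 and 8.59 FPKM in wild type, 4.90 and 4.08 in wox11, and 5.62 and 6.08 in the libraries labelled jmj705. Both mutants lay below wild type without overlap, with a difference of -0.83 in wox11 (SE 0.15, limma adjusted p = 0.0631). Such an order was found at 10.3% of unnamed loci and 11.4% of all loci tested. XLOC_035036, also on chromosome 4, had 6.28 and 5.42, 2.71 and 1.92, and 8.10 and 6.02 FPKM in the same order, a difference of -1.05 in wox11 (SE 0.20, limma adjusted p = 0.0788). XLOC_000939 on chromosome 1 had 11.7 and 20.6, 3.65 and 6.38, and 13.7 and 13.1 FPKM, a difference of -1.5 (SE 0.29, limma adjusted p = 0.0899). In these last 2, wox11 was low and the libraries labelled jmj705 lay in or near the range of wild type.

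XLOC_052323 on chromosome 8 had 23.4 and 22.9 FPKM in wild type, 16.7 and 13.9 in wox11, and 13.7 and 14.8 in those labelled jmj705, below wild type in all 4 mutant libraries (limma adjusted p = 0.152 and 0.114). XLOC_053486, XLOC_049526 and XLOC_028737 were 0.55 to 0.79 lower in the libraries labelled jmj705 on the log2(FPKM + 1) scale, with adjusted p by limma of 0.13 to 0.166.

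JMJ705 peaks lay at or near few unnamed loci. The peak lists held 1551 peaks in the wild-type background and 1309 in the wox11 background, and the fold enrichments over input below are the authors' values. A false discovery rate of at most 5% was listed for 1532 of the wild-type-background peaks and for none of the wox11-background peaks. A wild-type-background peak overlapped 41 unnamed loci (4.59%), lay within 1 kb of 53 (5.93%) and within 5 kb of 68 (7.61%). The shares for named loci were 3.58, 4.18 and 6.72%. For the wox11 background, 28 unnamed loci were overlapped (3.13%), 33 had a peak within 1 kb (3.69%) and 57 within 5 kb (6.38%), against 2.94, 3.53 and 5.68% of named loci. Loci that share wide coordinates meet peaks more often. With own coordinates alone, 4.13% of unnamed and 2.74% of named loci lay within 1 kb of a wild-type-background peak, and 2.67 and 2.31% within 1 kb of a wox11-background peak. When peaks with a score under 100 were also left out, those shares were 2.4 and 0.711%, and 1.47 and 0.923%. The score is described under processing. Unnamed loci with own coordinates were also shorter, at a median of 1659 against 3710 bp, and lengths were not matched. There is 1 list per background, so no share has a replicate check.

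**Figure D5:**
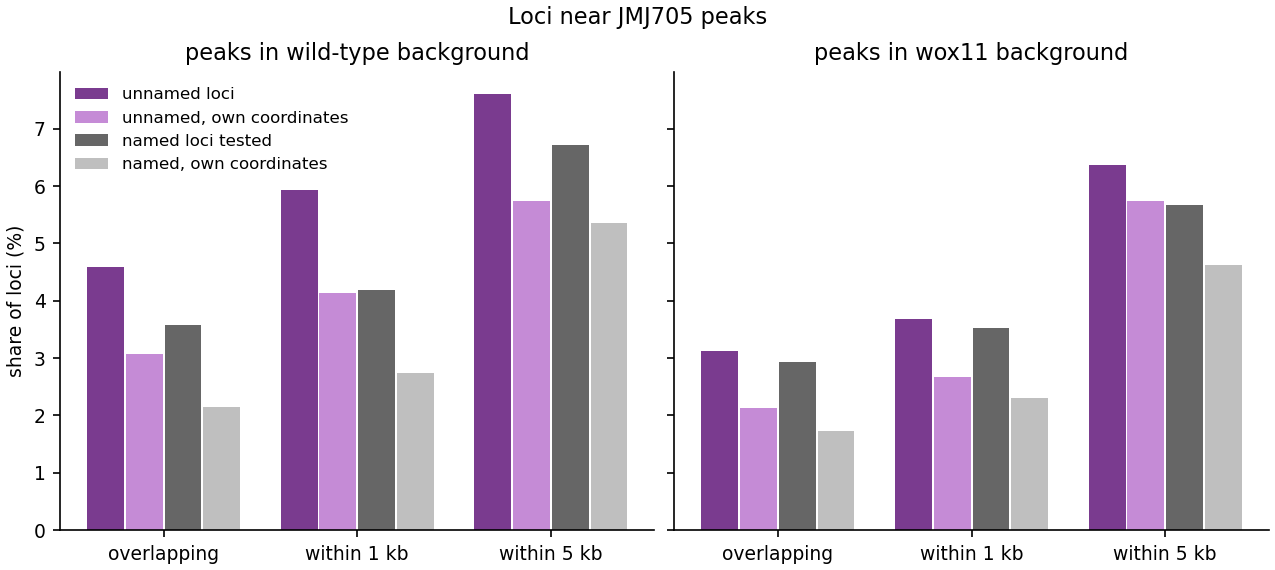
Share of loci (%) that a JMJ705 peak overlaps or that have one within 1 or 5 kb, for the wild-type background (left) and the wox11 background (right), with all loci and with loci that have coordinates of their own. Within 1 kb of a wild-type-background peak lay 5.93% of unnamed and 4.18% of named loci.

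Within 1 kb of a peak of either list lay 65 unnamed loci, of both lists 21, of the wild-type background alone 32 and of the wox11 background alone 12. The peak with the highest fold enrichment at an unnamed locus in the wild-type list lay in XLOC_016074 on chromosome 12 (18721353 to 18724683), at 18721398 to 18722811, with a fold enrichment of 18.9 and 95 tags. In the wox11 background a peak at 18721616 to 18722601 had 9.10 and 77 tags. The locus had 6.68 and 10.2 FPKM in wild type, 5.53 and 8.39 in wox11, and 7.05 and 9.87 in those labelled jmj705, and the genotypes overlapped.

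XLOC_040620 on chromosome 6 (5167602 to 5171459) was overlapped by a peak of 16.3-fold enrichment in the wild-type background, with 162 tags, and of 11.1-fold in the wox11 background, with 152 tags and a false discovery rate of 36.4%. It had 0.888 to 2.19 FPKM in all libraries. XLOC_057349 on chromosome 9 (7411902 to 7412722) had peaks of 15.5-fold with 43 tags and 16.1-fold with 72 tags, and its level was even, at 8.93 to 10.1 FPKM. The strongest peak at an unnamed locus without any in the wild-type list within 1 kb was in XLOC_001457 on chromosome 1 (18818239 to 18819216), of 14.3-fold with 62 tags in the wox11 background, and this locus had 4.31 to 7.29 FPKM. XLOC_035849 on chromosome 5 (4365519 to 4370543) had peaks of 10.4-fold with 85 tags and 6.87-fold with 54 tags at the same end, and stood at 0.789 to 1.73 FPKM.

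Other peaks of high enrichment fell in shared coordinates, and where these are wide the peak may lie far from the transcript. XLOC_021720 on chromosome 2, whose coordinates 49 loci share, held peaks of 18.3-fold in the wild-type and 14.3-fold in the wox11 background, at 2371742 to 2372701 and at 2325889 to 2326896, and had 3.22 to 4.20 FPKM. XLOC_011369 and XLOC_013567 on chromosome 11 share the same 133223 bp and 3 wild-type-background peaks, the highest of 10.6-fold, with 1.78 to 2.68 and 10.3 to 18.1 FPKM. XLOC_024270, XLOC_004073 and XLOC_042171 held wox11-background peaks of 10.4, 8.28 and 7.83-fold, and none of them passed the test in a mutant. Their coordinates span 6349, 3771 and 252009 bp and are shared by 2, 4 and 36 loci, so only the last are wide. Fold enrichments come from separate lists, and their order between lists shows no change.

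Of the 53 unnamed loci within 1 kb of a wild-type-background peak, 1 was among the risers of each contrast, a share close to the 1.45 and 1.90% of all unnamed loci. This was XLOC_012880 in both, whose peak at 4353156 to 4354294 had 8.06-fold enrichment, 51 tags and a false discovery rate of 1.58%. Of the other 841, 12 rose in wox11 and 16 in those labelled jmj705. None of the 33 near a wox11-background peak passed limma's test against wild type, where 0.496 and 0.429% of all loci tested rose, and nothing is read from this count. The median difference near wild-type-background peaks was -0.01 in wox11 and -0.07 in those labelled jmj705, and away from them it was -0.03 and -0.06. Of the 12 highest loci, 3 overlapped a wild-type-background peak: XLOC_047536, with 7.17-fold inside coordinates that 56 loci share, XLOC_012051, with 13.2-fold in the wild-type and 7.31-fold in the wox11 background, and XLOC_013551 on chromosome 11, with 165 to 233 FPKM and 5.87-fold in the wild-type background. The latter's peak, at 13506218 to 13507288, covered nearly the whole locus at 13506333 to 13507268.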

How the data were processed

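RNA-seq tables deposited by the authors give FPKM per locus with confidence bounds and a status, per the file headers. Trimmomatic, TopHat and Cufflinks are named in the submitters' processing notes, which for ChIP-seq name Trimmomatic 0.32, Bowtie2 2.1.0 and SAMtools 0.1.17. MACS 1.4.2 called peaks per library with 1e-05 as the p-value cutoff, per the file headers. Total ChIP tags were 5043282 in the wild-type and 7509947 in the wox11 background, with 4488720 and 6811451 left after filtering. Control tags after filtering were 15531116 and 11816531 in the same order. The deposited peak lists give tag counts, a score (the negative log10 of a p-value, times 10), a false discovery rate in percent and a fold enrichment, which is a ratio. No label or header names the genome build. Coordinates are printed as deposited, and sequences were not used here. A labelled input DNA sample was not analysed here.

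The level filter (1 FPKM or more in 2 or more libraries, status OK in all 6) left 22374 loci (21480 named and 894 unnamed of at least 200 bp), which were tested with limma 3.58.1 in R 4.3.3 on log2(FPKM + 1), with 1 mean per genotype, a mean-variance trend, 3 residual degrees of freedom and Benjamini-Hochberg adjustment at 0.05. The added 1 understates the change of low loci. No FPKM table gives read depth. The script was tested on simulated data. Distances are gaps in bp between coordinates. The loci, lists and rules were chosen with earlier results of these data known. Loci named are the 12 highest, those past the test and, in a direction with fewer than 4, the lowest p without overlap, up to 8 per list with the peaks of highest fold enrichment, the 5 longest, and on-off patterns. XLOC_017725 and XLOC_046181 were named after their values were seen.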

Additional observations from a re-analysis of the deposited data

Results flagged for a closer look

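Unnamed loci shorter than 200 bp stayed outside the comparisons, because FPKM of very short transcripts is divided by a small length. Of these 19 loci, 4 had all 4 mutant libraries above both wild-type libraries and none had all 4 below, while 9.54 and 11.4% of the loci tested showed these orders. Of the 19, 3 were listed at 0 in all libraries. XLOC_040142, 40 bp long on chromosome 5, was listed at 467206 and 746411 FPKM in wild type and at no less than 838984 in a mutant library. XLOC_053875, 138 bp on chromosome 8, had 81.0 and 72.3 FPKM in wild type and at least 110.0 in the mutants. XLOC_049556, 129 bp on chromosome 7, had 21.2 and 56.6 FPKM in wild type and at least 59.7 in the mutants. XLOC_024298, 192 bp on chromosome 2, had 4.52 and 8.05 FPKM in wild type and at least 8.09 in the mutants. Except at XLOC_053875, the margins are small beside the spread between replicates, and none of the 4 was tested.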

How the results depend on the processing

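All 3 counts of called unnamed loci (13 for wox11 and 17 for the libraries labelled jmj705 against wild type, 15 between the mutants) were within 1.5 times the main count under the other pseudocounts, both other scalings, the fit of 2 genotypes, no trend, short loci kept, a floor of 500 bp and loci with own coordinates alone. Among the same 894 they were 6 and 8 against wild type without the level filter. With a filter of 5 FPKM, which tested 342 unnamed loci, they were 5, 6 and 9. Leaving out 1 library gave 7 to 12 in wox11, 7 to 14 in those labelled jmj705 and 8 to 14 between the mutants. No called locus changed sign, and 5 of 13, 5 of 17 and 7 of 15 kept their call under every alternative in which they were tested. Unnamed loci within 5 kb of a named locus were 541 when only named loci past the level were counted. Those within 1 kb of a peak were 27 and 15 (wild-type and wox11 background) with peaks of a score of at least 100 (3.02 and 1.68%, against 1.37 and 1.25% of named loci), and 31 and 20 with own coordinates alone, a choice made after seeing the data. Within 5 kb of a wox11-background peak there were 57. Peaks with a false discovery rate of at most 5% gave no value for the wox11 background, which has none. Without the 10 highest unnamed loci the summed level was 7617 and 8224 FPKM in wild type, 7220 and 7543 in wox11, and 7629 and 8094 in those labelled jmj705. With a trace set under 0.5 FPKM, also chosen later, 14 loci were on in the libraries labelled jmj705 alone. The cause of these shifts was not tested.

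Replicate numbers are shared by the genotypes, but nothing in the labels says that a number marks a shared batch, so they were treated as names. Deviations of same-numbered libraries correlated at 0.283, 0.130 and 0.112 over all loci. With the replicate number as a block, 15, 16 and 20 unnamed loci passed, which include all 13, 15 of 17 and all 15 of those passing without it. Lost were XLOC_014632 and XLOC_035489. Newly passing were, among others, 2 that fell in wox11 and 1 that fell in those labelled jmj705.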
